A study of Mus musculus with 8 samples.

Results

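The genes described here are those of the interferon response and of antigen presentation in MC3T3-E1 cells. They were chosen by symbol: interferon receptors (Ifnar, Ifngr), STAT and IRF factors, cytosolic sensors (Rigi, Ifih1, Cgas, Sting1), interferon-induced genes (Ifi, Ifit, Ifitm, Oas, Mx, Gbp, Isg, Bst2, Usp18), histocompatibility genes (H2 and B2m) and the peptide-loading genes Tap1, Tap2, Tapbp and Tapbpl. The rule found 98 of the 20972 genes in the authors' deposited table, and Eif2ak2, an interferon-induced kinase, was left to the translation factors. The libraries came from MC3T3-E1 subclone 14, an osteoblastic line from mouse calvaria and a single subclone, exposed for 24 h to 10 µM Yoda1, which opens the mechanically gated cation channel PIEZO1, or to its solvent DMSO. The design text of the series speaks of human endothelial cells of bone instead; the labels of the samples were followed. The labels name no interferon for either group. Each group had 4 libraries, of which the labels set 1 aside for batch variation, leaving 3 with Yoda1 and 3 with DMSO. The deposited table gives for each gene the normalized count averaged over all libraries, and the log2 fold change of Yoda1 over DMSO with a standard error (SE), and no value per library, so the overlap of single libraries could not be examined. A level per group is therefore given below as implied by that mean and fold change for groups of equal size. Nothing in the labels of these samples ties the libraries to separate cultures, and p-values measure the spread between these libraries, which may be technical.

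Type I interferons signal through the IFNAR1 and IFNAR2 receptor chains and interferon gamma through IFNGR1 and IFNGR2. The kinases JAK1, JAK2 and TYK2 then phosphorylate STAT proteins, which bind interferon-stimulated response elements (ISRE) together with IRF9 or gamma-activated sequences (GAS) as dimers. Many cells, osteoblasts among them, keep a low tonic expression of these genes without added interferon. MHC class I molecules, a heavy chain with beta-2-microglobulin, show cytosolic peptides that TAP has carried into the endoplasmic reticulum and that tapasin, calreticulin and ERp57 help to load, whereas class II molecules are largely a matter of professional antigen-presenting cells.

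Genes of this group moved in both directions with Yoda1, and not as a block. The transmembrane gene Ifitm3 rose most among the abundant ones and the non-classical class I gene H2-T23, the adaptor gene Sting1 and Ifitm2 rose with it, while Ifi204, Ifi44 and the RNA sensor gene Rigi fell. An adjusted p was given for 70 of the 98 members, which are called tested here. Of these, 20 were higher and 14 lower with Yoda1 at an adjusted p under 0.05 by DESeq2, per the authors' deposited table. Among all 14653 tested genes 22.4% were higher and 22.1% lower, 44.5% in all, which sets the background for the 28.6% and 20% of the tested members. The share of members called was thus near that of all genes, and their median log2 fold change was 0.06, against -0.01 over all tested genes. The split by level gave the same picture: of 32 members with a mean at or above 423 normalized counts, the median of the tested genes, 12 were higher and 10 lower, beside 29.5% and 31.4% (60.9% in all) of all genes at that level.

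**Figure D1:**
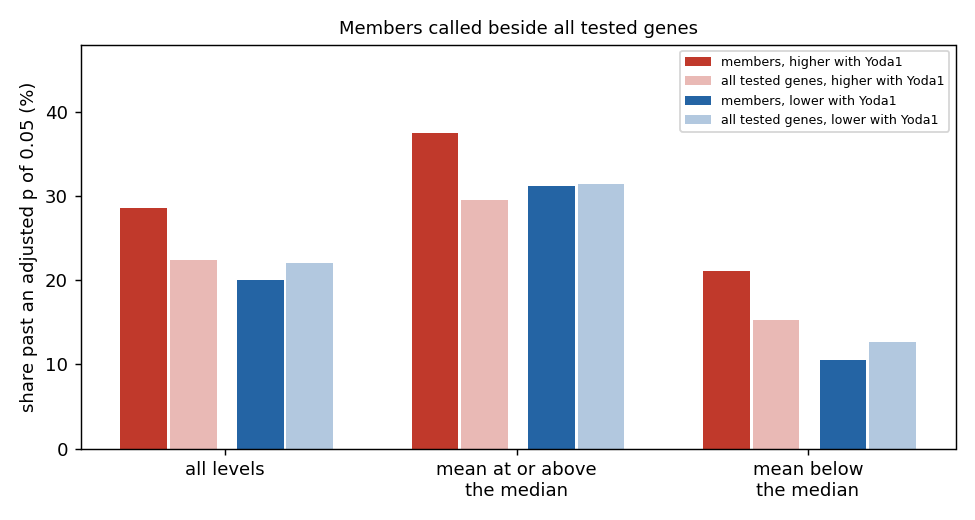
Share (%) of tested members and of all tested genes past an adjusted p of 0.05 in the authors' deposited table, higher (red) or lower (blue) with Yoda1, at all levels and on either side of the median mean count. Dark bars are the members and light bars all tested genes; at all levels the members stand at 28.6% and 20%, beside 22.4% and 22.1% of all tested genes.

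The 34 called members had fold changes of 1.16 to 5.04 upward and of 1.13 to 5.04 downward, and 9 of them exceeded 1 in log2 units, per the authors' deposited table. Of the 34 calls, 12 held when a t distribution with 4 degrees of freedom replaced the normal one, among them Ifitm3, Ifitm2, H2-T23, Sting1, Irf2bp2, Stat6 and H2-K1 among the higher genes, and Ifi204, Ifi44, Rigi and Tapbp among the lower ones. Shares of all tested genes above that fold and under this test were not taken. The 6 falls of B2m, Stat3, Stat5a, Ifnar1, Irf1 and Gbp2 were lost when the fold changes were recentred to give both groups equal summed counts, a shift of -0.11 taken off every log2 value. The MHC, Ifit, Ifi200, Oas and Gbp families hold near-identical copies whose reads the authors' counting could have split between them, so values of single copies are uncertain. Whether reads were also split among the Ifitm genes was not examined.

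**Figure D2:**
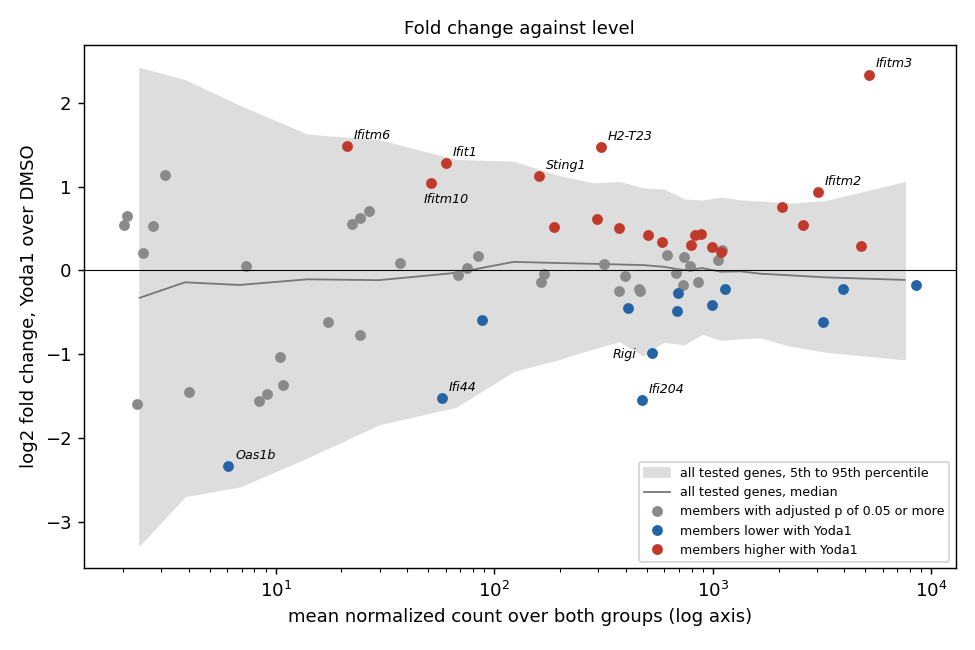
Log2 fold change (Yoda1 over DMSO) of tested members against their mean normalized count (log axis), with the range from the 5th to the 95th percentile of all tested genes at that level in grey. Ifitm3, at a mean of 5180 and a log2 fold change of 2.33, lies well above the grey band, and Ifi204, at 474 and -1.55, below it.

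The libraries carried genes of the osteoblast lineage, at levels that differed widely between markers and between groups, and little of other cell types. All 12 osteoblast markers had a row, with Col1a1 at a mean of 171434, Runx2 at 2102 and Bglap at 4.70 normalized counts in the authors' deposited table. Of the 12, 2 were higher and 8 lower with Yoda1, beside 22.4% and 22.1% of all tested genes. The 12 markers summed to an implied 549808 with Yoda1 and 818607 with DMSO. Alpl, which encodes alkaline phosphatase, was at an implied 1.54 with Yoda1 and 93.1 with DMSO. Ibsp was at an implied 86.8 with Yoda1 and 2596 with DMSO, and Postn at 20149 and 119989. The 2 higher markers were Spp1, at an implied 270684 with Yoda1 and 36401 with DMSO, and Dmp1, at 4503 and 417. The part of these markers in the results below was not tested. The macrophage and leukocyte list summed to an implied 1082 normalized counts with Yoda1 and 313 with DMSO over the 8 of 10 genes with a row, of which Cd14, the lipopolysaccharide co-receptor gene, made up 989 and 149. The leukocyte genes Ptprc and Itgam stood at means of 0.16 and 0.32, while Lyz2, a lysozyme gene of the list, was at an implied 54.7 with Yoda1 and 140 with DMSO; the part of such cells in the results was not tested, and in bulk RNA fewer cells of a type and less RNA per cell cannot be told apart. In the dendritic and B cell list 3 of 6 genes had a row and summed to 13.4 with Yoda1 and 29.5 with DMSO. Endothelial markers summed to 4.64 with Yoda1 and 6.50 with DMSO over 3 of 6 genes, in values computed from the authors' deposited table. The table sums to 19849773 mean normalized counts, of which the 98 members hold 0.28%.

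Promoter windows of 5 called members are shown because each holds the ISRE core, the element through which interferon is known to act, and because their calls went in opposite directions. The windows are from RefSeq on GRCm38.p6, a build other than the GRCm39 named in the submitters' processing notes, and run from 250 bases before to 50 bases after the gene start, with each match to the core in capitals. Ifitm3 lies at chr7:141010695-141010994 on the minus strand, Ifit1 at chr19:34640639-34640938 on the plus strand, H2-T23 at chr17:36032652-36032951 on the minus strand, B2m at chr2:122147437-122147736 on the plus strand and Gbp2 at chr3:142620413-142620712 on the plus strand. Ifitm3, Ifit1 and H2-T23 were higher and B2m and Gbp2 lower with Yoda1. The calls of Ifit1, B2m and Gbp2 were lost against the t distribution.
Ifitm3: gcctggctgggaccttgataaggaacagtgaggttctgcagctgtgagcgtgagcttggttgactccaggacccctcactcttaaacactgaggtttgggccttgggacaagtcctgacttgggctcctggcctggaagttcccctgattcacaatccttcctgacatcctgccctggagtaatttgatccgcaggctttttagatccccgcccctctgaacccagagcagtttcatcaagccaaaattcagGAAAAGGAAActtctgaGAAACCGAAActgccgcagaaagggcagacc
Ifit1: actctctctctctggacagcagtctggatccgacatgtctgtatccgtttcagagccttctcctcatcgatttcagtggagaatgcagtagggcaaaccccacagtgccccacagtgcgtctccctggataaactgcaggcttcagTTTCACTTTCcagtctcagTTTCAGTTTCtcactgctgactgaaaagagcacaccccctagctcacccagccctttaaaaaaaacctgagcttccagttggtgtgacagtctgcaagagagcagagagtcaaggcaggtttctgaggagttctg
H2-T23: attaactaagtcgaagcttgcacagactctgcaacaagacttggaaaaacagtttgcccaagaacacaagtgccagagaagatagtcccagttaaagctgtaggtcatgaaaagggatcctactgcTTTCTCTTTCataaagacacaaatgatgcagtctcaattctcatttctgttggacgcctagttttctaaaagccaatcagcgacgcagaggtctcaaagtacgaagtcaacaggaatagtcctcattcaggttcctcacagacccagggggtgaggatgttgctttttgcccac
B2m: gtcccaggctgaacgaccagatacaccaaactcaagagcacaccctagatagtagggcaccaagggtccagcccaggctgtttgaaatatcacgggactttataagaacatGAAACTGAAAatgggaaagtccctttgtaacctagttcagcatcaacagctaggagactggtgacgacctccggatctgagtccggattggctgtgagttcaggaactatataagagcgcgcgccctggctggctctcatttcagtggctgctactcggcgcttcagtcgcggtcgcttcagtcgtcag
Gbp2: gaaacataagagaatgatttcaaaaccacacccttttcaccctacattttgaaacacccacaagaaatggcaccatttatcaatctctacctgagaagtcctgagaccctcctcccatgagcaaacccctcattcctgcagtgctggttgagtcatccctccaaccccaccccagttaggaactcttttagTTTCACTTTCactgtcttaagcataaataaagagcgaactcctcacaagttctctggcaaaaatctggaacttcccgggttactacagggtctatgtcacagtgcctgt

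The core searched was TTTC, any 2 bases and TTTC again, or GAAA, any 2 bases and GAAA on the other strand. Of the 75 members with a promoter entry 29 held it, 38.7%, against 3.99% of all 27025 genes in the table. The share was 5 of 18 among members higher with Yoda1, 3 of 10 among those lower, 13 of 31 among those tested but not called and 8 of 16 among those untested. The core therefore occurred in members called higher, called lower and not called. The 3 lower ones, B2m, Gbp2 and Irf2, all lost their calls against the t distribution. Among the 5 higher ones, Ifit1 and Ifi211 lost theirs. Counted from the gene start, copies of the core begin at positions 3 and 20 in Ifitm3, -104 and -85 in Ifit1, -124 in H2-T23, -139 in B2m and -59 in Gbp2. The GAS motif TTCNNNGAA, which reads the same on both strands, was found in 15 of the 75 members, 20%, against 9.55% of all genes, with Ifitm3, Ifitm6, Ifi35 and Irf2bp1 as its higher and Irf1, Irf2 and Ifnar1 as its lower members. Of these called members only Ifitm3 held against the t distribution. The kappaB motif, GGG, any 2 bases and TTTCC on either strand, was found in 5 of the 75, 6.67%, against 1.89% of all genes, with B2m and Irf2 as its called members. H2-K1, H2-D1, Tapbp and Tap1 were not among the members found with any of the 3 motifs. This says only that no window searched under those symbols held these letters.

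The receptors were expressed and changed little. Of 4 tested, 0 were called higher and 2 lower, beside 22.4% and 22.1% of all tested genes. Both falls were lost against the t distribution. Ifngr1, the ligand-binding chain of the interferon gamma receptor, had implied levels of 847 normalized counts with Yoda1 and 1128 with DMSO, 1.33-fold lower (95% interval 1.16 to 1.53, DESeq2 adjusted p = 0.000224), per the authors' deposited table. Ifnar1 was 1.17-fold lower (1.05 to 1.30, DESeq2 adjusted p = 0.0150) in that deposited table. The partner chains Ifngr2 and Ifnar2 had log2 changes of 0.05 (SE 0.16) and 0.16 (0.11), neither past the threshold, in the authors' deposited table. Ifnar2 did pass it with equal summed counts, at an adjusted p of 0.0402 (all alternatives: 0.0402 to 1). Ifnar2, Ifnar1 and Ifngr2 lie side by side on chromosome 16 in RefSeq together with Il10rb, which encodes a shared chain of the interleukin-10 receptor family and had a log2 change of 0.30 (0.13, DESeq2 adjusted p = 0.0389), per the authors' deposited table.

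The STAT genes did not share a direction. Stat2, which acts below the type I receptor, had a log2 change of -0.24 (SE 0.14, DESeq2 adjusted p = 0.138), per the authors' deposited table. Stat6, the transducer of interleukin-4 signals, had an implied 3081 normalized counts with Yoda1 and 2115 with DMSO, 1.46-fold higher (1.27 to 1.67, DESeq2 adjusted p = 7.95e-07), per the authors' deposited table. Stat5a and Stat3, neighbours on chromosome 11 in RefSeq, had log2 changes of -0.45 (0.15) and -0.22 (0.08), while Stat5b beside them stood at -0.03 (0.11), per the authors' deposited table. The calls of Stat5a and Stat3 were lost against the t distribution and with equal summed counts, as described above.

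Of 6 tested interferon regulatory factors 2 were called higher and 2 lower, beside 22.4% and 22.1% of all tested genes. All 4 calls were lost against the t distribution. Irf3, which the sensor pathways activate, was 1.33-fold higher (95% interval 1.13 to 1.57, DESeq2 adjusted p = 0.00167) and Irf5, which acts below Toll-like receptors, 1.34-fold higher (1.17 to 1.55, DESeq2 adjusted p = 0.000172), per the authors' deposited table. Irf2, a repressor that competes with IRF1 for its sites, was 1.40-fold lower (1.19 to 1.66, DESeq2 adjusted p = 0.000299), and Irf1 itself 1.20-fold lower (1.03 to 1.40, DESeq2 adjusted p = 0.0383), per the authors' deposited table. The call of Irf1 was also lost with no filter, at an adjusted p of 0.0547, and under each of the 3 centrings (all alternatives: 0.0331 to 1). Irf9, a DNA-binding partner of STAT proteins, had a log2 change of -0.05 (SE 0.22) at a mean of 168 normalized counts, and Irf7, the interferon-induced amplifier, 0.70 (0.51) at a mean of 26.7 in the authors' deposited table. The sign of the Irf9 value turned with equal summed counts.

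Among 4 tested sensor genes Sting1 rose and Rigi fell, beside 22.4% of all tested genes higher and 22.1% lower. Rigi, the helicase that recognises viral RNA ends, was at an implied 355 normalized counts with Yoda1 and 702 with DMSO, a log2 change of -0.98 (SE 0.17), per the authors' deposited table. Sting1, the adaptor that answers cyclic GMP-AMP, was at 219 with Yoda1 and 100.2 with DMSO, 2.18-fold higher (95% interval 1.70 to 2.80, DESeq2 adjusted p = 5.92e-09), per the same authors' deposited table. Cgas, the DNA sensor that makes this messenger, had a log2 change of -0.25 (0.15, DESeq2 adjusted p = 0.176) and the long-RNA sensor gene Ifih1 0.09 (0.37) at a mean of 36.9 in the authors' deposited table. The interval of Rigi lies below 0 and that of Sting1 above it, while those of Cgas and Ifih1 include it.

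**Figure D3:**
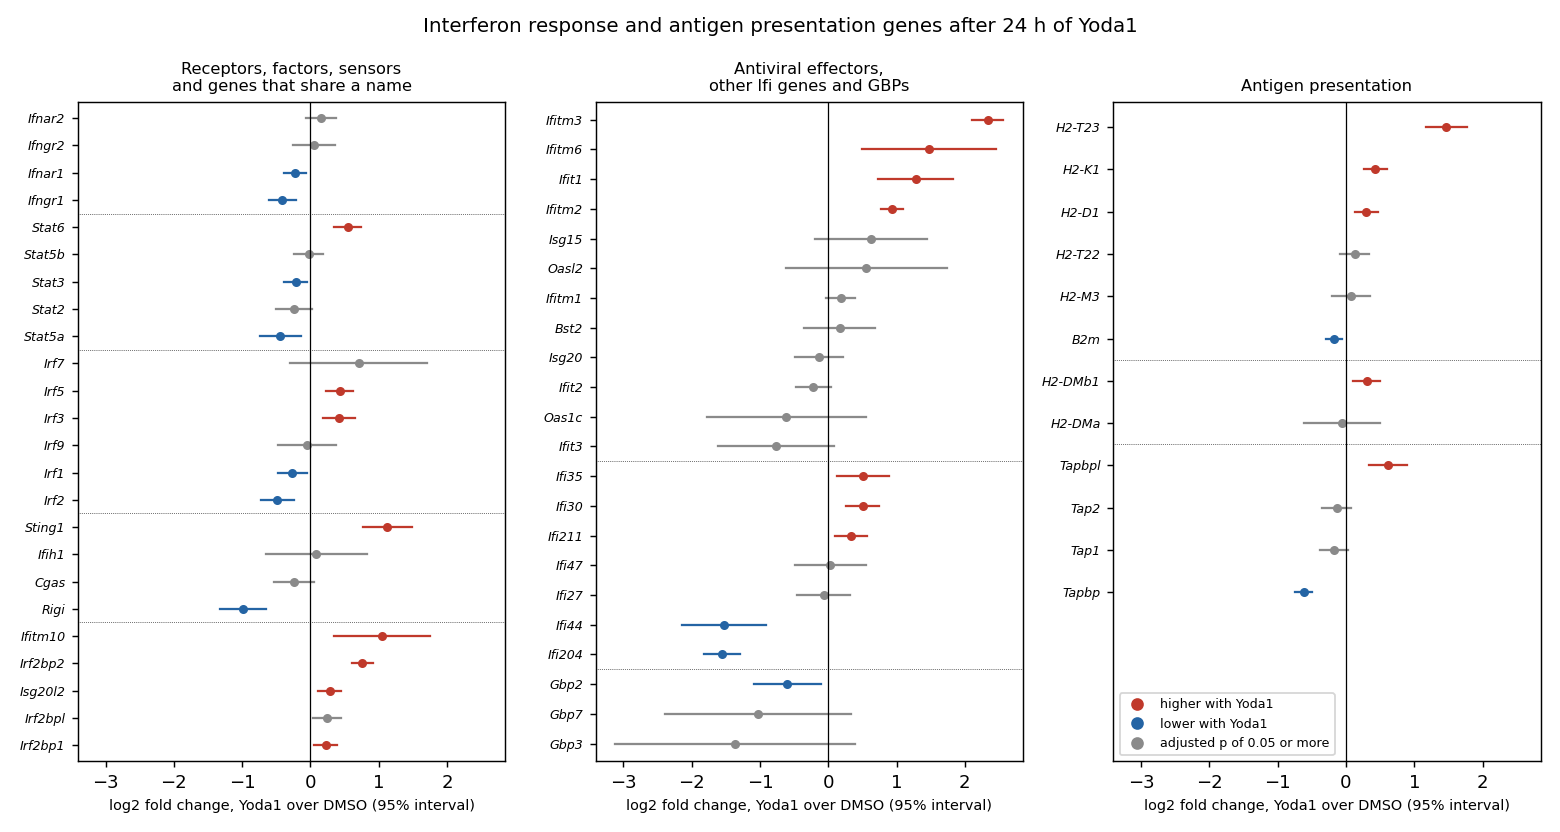
Log2 fold change of Yoda1 over DMSO with its 95% interval for 58 tested members with a mean of at least 10 normalized counts, by role and, within a role, from the highest to the lowest value. Red marks genes higher and blue genes lower with Yoda1 at an adjusted p under 0.05, and grey the others; Ifitm3 reaches 2.33 and Ifi204 -1.55.

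The IFITM genes, whose small membrane proteins hinder fusion of enveloped viruses with the cell, include the member with the largest rise among those called. Ifitm3 was at an implied 8645 normalized counts with Yoda1 and 1715 with DMSO, 5.04-fold higher (95% interval 4.30 to 5.91, DESeq2 adjusted p = 1.19e-85), per the authors' deposited table. Ifitm2 was at 3970 with Yoda1 and 2081 with DMSO, 1.91-fold higher (1.70 to 2.14, DESeq2 adjusted p = 7.39e-27), per the same authors' deposited table. Per kilobase of transcript, Ifitm3 and Ifitm2 had mean levels of 7640 and 4619 normalized counts, behind B2m at 9889 and ahead of H2-D1 at 2271 among the members with a length. Of all 6 tested Ifitm genes 4 were higher and 0 lower in the authors' deposited table, beside 22.4% and 22.1% of all tested genes. Ifitm1 and Ifitm5 were not called. The remaining rises were those of the low genes Ifitm6 (log2 fold change 1.48, standard error 0.50) and Ifitm10 (1.05, 0.36), per the authors' deposited table, both lost against the t distribution. Ifitm1 was not called, at 0.18 (0.11, DESeq2 adjusted p = 0.157), per the authors' deposited table, but passed with equal summed counts, at an adjusted p of 0.0165 (all alternatives: 0.0165 to 1). Ifitm5, the bone-restricted member of the family that marks mineralising osteoblasts, averaged 2.02 normalized counts by the authors' deposited table, and its log2 value had a standard error of 1.50, too wide to show a difference.

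Ifitm5, Ifitm2, Ifitm1, Ifitm3 and Ifitm6 follow each other on chromosome 7 in RefSeq, and Ifitm10 lies apart on the same chromosome. The genes that flank the cluster with a row, Pgghg and B4galnt4, had log2 changes of -0.05 (SE 0.11) and 0.79 (0.40), neither past the threshold, in the authors' deposited table. The Ifit genes on chromosome 19 encode proteins that bind viral RNA. Of 4 tested, 1 was called higher and 0 lower, beside 22.4% and 22.1% of all tested genes. Ifit1 was at an implied 84.9 normalized counts with Yoda1 and 35.0 with DMSO in values from the authors' deposited table, whereas Ifit2, the most abundant of them at a mean of 462, had a log2 change of -0.22 (0.13) and Ifit3 -0.77 (0.43), neither called. The interval of Ifit1, 0.73 to 1.83 on the log2 scale, did not overlap those of Ifit2 and Ifit3, which reached up to 0.04 and 0.08 in values computed from the authors' deposited table, and the difference between these genes was not tested. Its call did not hold against the t distribution.

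In the Ifi200 cluster of chromosome 1, which encodes DNA-binding proteins of the PYHIN family, neighbours differed in their calls. Ifi204, whose protein is known in mouse cells as a partner of RUNX2 in osteoblast differentiation, was at an implied 241 normalized counts with Yoda1 and 707 with DMSO, 2.93-fold lower (95% interval 2.44 to 3.51, DESeq2 adjusted p = 2.72e-29), per the authors' deposited table. Mndal, the adjacent PYHIN gene outside the symbol rule, had a log2 change of -1.30 (SE 0.24, DESeq2 adjusted p = 2.49e-07), per the authors' deposited table. Ifi211, next in order, was 1.26-fold higher (1.07 to 1.49, DESeq2 adjusted p = 0.0169) at a mean of 585 in the authors' deposited table. This call of Ifi211 was lost against the t distribution. Ifi203 and Ifi205 had means of 7.30 and 4.00 normalized counts and were not called in the authors' deposited table.

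**Figure D4:**
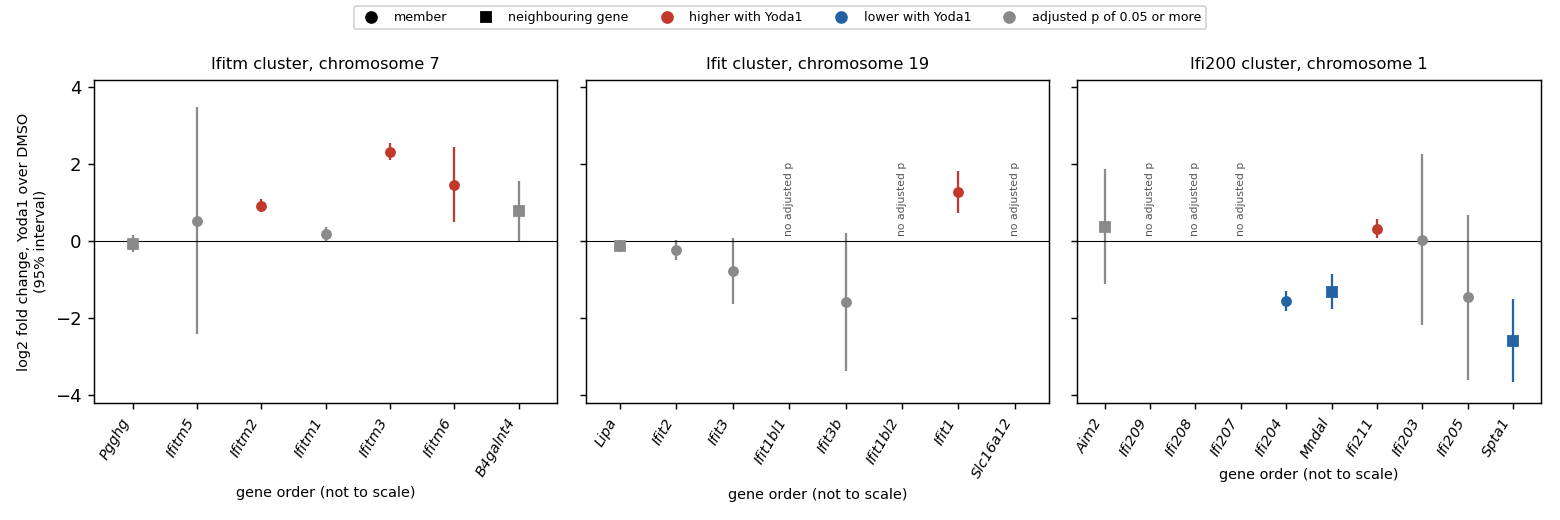
Log2 fold change of Yoda1 over DMSO with its 95% interval for genes of the Ifitm, Ifit and Ifi200 clusters and the nearest protein-coding gene with a row on each side, in RefSeq gene order (not to scale); circles are members and squares other genes. Ifitm3 stands at 2.33 beside Ifitm1 at 0.18, Ifit1 at 1.28 near Ifit3b at -1.56, and Ifi211 at 0.33 near Ifi204 at -1.55. Of these, Ifitm1 and Ifit3b were not called, and their intervals include 0.

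The other effectors were mostly low. Ifi44, an interferon-induced gene, was at an implied 29.7 normalized counts with Yoda1 and 85.4 with DMSO in values from the authors' deposited table. Ifi30, the lysosomal thiol reductase that unfolds antigens, was 1.42-fold higher (95% interval 1.20 to 1.67, DESeq2 adjusted p = 0.000184) and Ifi35, 1.43-fold higher (1.10 to 1.86, DESeq2 adjusted p = 0.0201), per the authors' deposited table, without holding against the t distribution. Ifi27 and Ifi47 had log2 changes of -0.07 (SE 0.20) and 0.03 (0.27), per the authors' deposited table. Gbp2, a GTPase that attacks pathogen vacuoles, was 1.51-fold lower (1.08 to 2.12, DESeq2 adjusted p = 0.0397), per the authors' deposited table, and its call was lost under 4 of the 7 alternatives of test, filter or centring. Gbp3, Gbp6 and Gbp7 had means of 2.32 to 10.8 normalized counts and negative values that were not called in the authors' deposited table.

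Many classical interferon-induced genes were at the edge of detection in both groups. Mx1 and Mx2, the GTPases often read as signs of type I interferon, had means of 0.17 and 0.15 normalized counts in the authors' deposited table and no adjusted p. Of 9 Oas genes, which encode sensors of double-stranded RNA, 5 were tested, and the highest was Oasl2 at a mean of 22.3 in the authors' deposited table. Oas1b was called lower at a mean of 6.04 (log2 fold change -2.33, standard error 0.90, DESeq2 adjusted p = 0.0242), per the authors' deposited table, but it did not pass the stricter filter. Its call was also lost against the t distribution. Isg15, the ubiquitin-like modifier, had a mean of 24.2 and a log2 change of 0.63 (0.42), Usp18, which removes it, a mean of 2.75, and Bst2, the tether of budding viruses, a mean of 84.1 and 0.17 (0.26), none of them called in the authors' deposited table. Isg20, an RNA exonuclease gene, had a log2 change of -0.14 (0.18). The 28 untested members had means of 0.15 to 1.70 normalized counts, 23 of them below 1, with standard errors of 1.66 to 4.08 in log2 units, per the authors' deposited table. Of these, 8 share the value -0.87 with a standard error of 4.08, which carries no information on direction. Rsad2 had no row under that symbol and was not analysed here.

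Of 7 tested class I members 3 heavy chains rose and beta-2-microglobulin fell, beside 22.4% of all tested genes higher and 22.1% lower. The calls of H2-D1 and B2m were lost against the t distribution. H2-K1, a classical heavy chain, was at an implied 1018 normalized counts with Yoda1 and 756 with DMSO, 1.35-fold higher (95% interval 1.20 to 1.52, DESeq2 adjusted p = 5.34e-06), per the authors' deposited table. H2-D1, the more abundant classical chain, was 1.23-fold higher (1.09 to 1.38, DESeq2 adjusted p = 0.00179) at a mean of 4773 in the authors' deposited table. H2-T23, which encodes a non-classical chain read by natural killer cell receptors, was at 452 with Yoda1 and 163 with DMSO, 2.77-fold higher (2.25 to 3.40, DESeq2 adjusted p = 1.04e-20), per the same authors' deposited table. The interval of H2-T23 lies above those of the classical chains. H2-T22, its neighbour on chromosome 17, and H2-M3, which presents formylated peptides, had log2 changes of 0.13 (SE 0.11) and 0.07 (0.14) and were not called in the authors' deposited table. B2m, the light chain common to them, was 1.13-fold lower (1.04 to 1.22, DESeq2 adjusted p = 0.0117) at a mean of 8505 in the authors' deposited table, a fall that was lost with equal summed counts (adjusted p = 0.390, all alternatives: 0.0100 to 1). Of the 14 class I members 7 were untested, with means below 2 normalized counts.

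Of 4 tested peptide-loading genes 1 was called higher and 1 lower, beside 22.4% and 22.1% of all tested genes. The call of the higher one, Tapbpl, was lost against the t distribution. Tapbp, which encodes tapasin, was at an implied 2531 normalized counts with Yoda1 and 3886 with DMSO, 1.54-fold lower (95% interval 1.41 to 1.68, DESeq2 adjusted p = 3.60e-20), per the authors' deposited table. Tapbpl, the tapasin-related peptide editor, was at 357 with Yoda1 and 233 with DMSO, 1.53-fold higher (1.26 to 1.86, DESeq2 adjusted p = 9.78e-05), per the same authors' deposited table. Tap1 and Tap2, the subunits of the peptide transporter, had log2 changes of -0.17 (SE 0.10) and -0.14 (0.11) and were not called in the authors' deposited table.

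Most class II chains were close to absent. H2-Ab1, H2-Eb1 and H2-Oa had means of 0.52, 0.37 and 0.16 normalized counts in the authors' deposited table, as did their activator Ciita at 0.16. H2-DMb1, a chain of the class II peptide editor, nonetheless had a mean of 799 and was 1.23-fold higher (95% interval 1.08 to 1.41, DESeq2 adjusted p = 0.00654), per the authors' deposited table, while its partner H2-DMa had a mean of 68.2 and a log2 change of -0.06 (SE 0.28). The call of H2-DMb1 was lost against the t distribution. Cd74, the class II invariant chain, was at an implied 13.0 normalized counts with Yoda1 and 28.7 with DMSO (DESeq2 adjusted p = 0.0441), per the authors' deposited table, a call lost with no filter, with equal summed counts, against the t distribution and in the test against 0.5 (all alternatives: 0.0382 to 0.965).

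A list of antigen-processing genes outside the symbol rule, chosen with earlier results of these data known, held many falls. Of 13 tested genes in that list 9 were lower and 0 higher, beside 22.1% and 22.4% of all tested genes (31.4% and 29.5% at or above the median level). Their median log2 fold change was -0.49, against -0.01 over all tested genes, in the authors' deposited table. Nlrc5, the transactivator of class I genes, was at an implied 36.7 normalized counts with Yoda1 and 125 with DMSO, 3.40-fold lower (95% interval 2.15 to 5.37, DESeq2 adjusted p = 1.01e-06), per the authors' deposited table. Erap1, which trims peptides in the endoplasmic reticulum, was 2.64-fold lower (2.06 to 3.38, DESeq2 adjusted p = 2.94e-13), per the same authors' deposited table. The folding genes Calr and Pdia3, which encode calreticulin and ERp57, were 2.02-fold (1.80 to 2.26) and 1.52-fold lower (1.37 to 1.68), per the authors' deposited table, and both serve secretory proteins in general. Against the t distribution 4 of the 9 stayed called, and under each of the 3 centrings 1 gene of the list was called higher. The falls of Cd1d1, Cd74 and Mr1 were lost with equal summed counts, and that of Mr1 also with trimmed-mean centring.

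**Figure D5:**
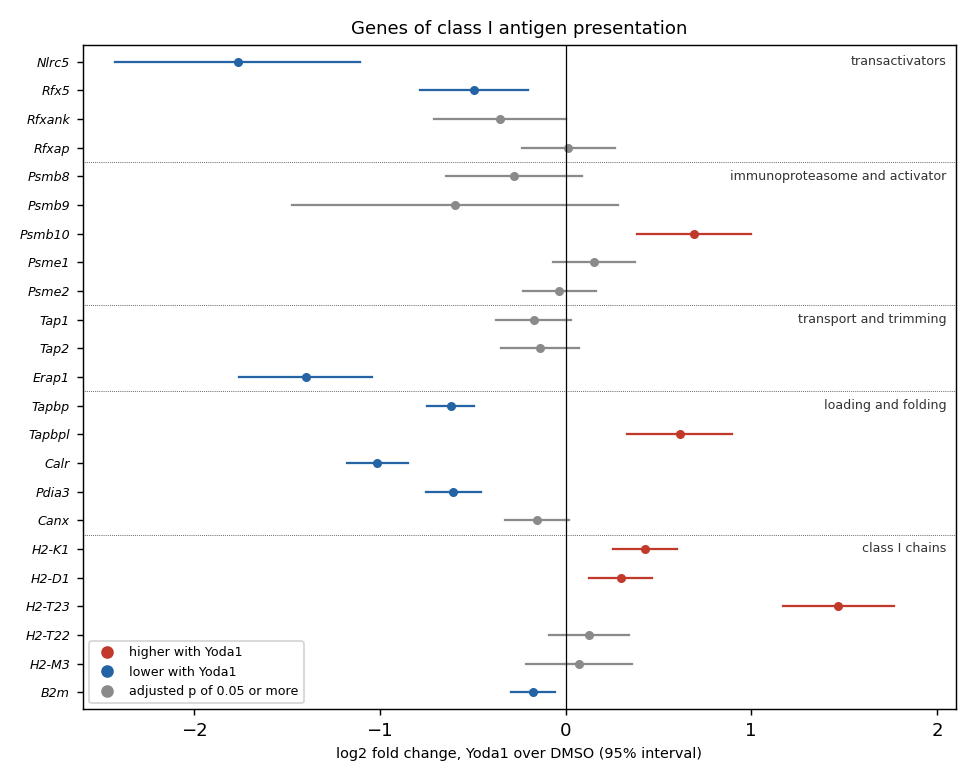
Log2 fold change of Yoda1 over DMSO with its 95% interval for members and listed genes of class I antigen presentation, from transactivators at the top to the class I chains at the bottom. Nlrc5 at -1.77 and Erap1 at -1.40 lie left of 0, and H2-T23 at 1.47 and H2-K1 at 0.43 right of it.

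The kinases and brakes of interferon receptors were taken as a list too. Of 12 tested genes 1 was higher and 4 lower, beside 22.4% and 22.1% of all tested genes (29.5% and 31.4% at or above the median level), in the authors' deposited table. Tyk2, the kinase of the IFNAR1 chain, was 1.86-fold higher (95% interval 1.61 to 2.14, DESeq2 adjusted p = 5.65e-16) and Jak2, the kinase of the IFNGR2 chain, 1.68-fold lower (1.45 to 1.95, DESeq2 adjusted p = 1.49e-10), per the authors' deposited table. Pias1, an inhibitor of STAT signalling, and the phosphatase gene Ptpn11 had log2 changes of -0.55 (SE 0.11) and -0.31 (0.08), and Ptpn2, chosen after its value was seen, -0.38 (0.12), per the authors' deposited table. Against the t distribution 2 of the 4 falls stayed called.

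In the list of sensing signals, 5 of 15 tested genes were higher and 3 lower, near the 22.4% and 22.1% of all tested genes, in the authors' deposited table. Tlr4, the lipopolysaccharide receptor that works with CD14, was 2.68-fold higher (95% interval 2.09 to 3.44, DESeq2 adjusted p = 1.39e-13), per the authors' deposited table. Mavs, the adaptor of RIG-I, was 1.49-fold higher (1.33 to 1.67), Adar, an editor of double-stranded RNA, 1.33-fold higher (1.13 to 1.56), and Samhd1, a nucleotide hydrolase, 1.42-fold lower (1.29 to 1.57), per the authors' deposited table. The further rises were those of Myd88 and Traf3 and the further falls those of Ticam1 and Trex1, named after their values were seen. Against the t distribution 2 of the 5 rises and 1 of the 3 falls stayed called, and with equal summed counts 1 of the falls.

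Of 30 tested interferon-stimulated genes outside the symbol rule, 2 were higher (Pml and Psmb10, named after their values were seen) and 7 lower, beside 22.4% and 22.1% of all tested genes, with a median log2 fold change of -0.23 in the authors' deposited table. Xaf1, an antagonist of apoptosis inhibitors, was 4.32-fold lower (95% interval 2.78 to 6.70, DESeq2 adjusted p = 6.21e-10) and Samd9l 1.72-fold lower (1.48 to 1.99, DESeq2 adjusted p = 4.20e-12), per the authors' deposited table. Shisa5 and Parp12 had log2 changes of -0.75 (SE 0.10) and -0.48 (0.09), per the authors' deposited table. The rises became 4 with equal summed counts and 0 against the t distribution, and the falls became 4 against the t distribution.

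The members that share a name but not the function were set apart. Irf2bp2, a corepressor that binds IRF2, was at an implied 2599 normalized counts with Yoda1 and 1539 with DMSO, 1.69-fold higher (95% interval 1.52 to 1.88, DESeq2 adjusted p = 2.61e-20), per the authors' deposited table. Irf2bp1 and the ribosome biogenesis gene Isg20l2 had log2 changes of 0.22 (SE 0.09) and 0.28 (0.09), and Irf2bpl 0.24 (0.11, DESeq2 adjusted p = 0.0551), per the authors' deposited table. The calls of Irf2bp1 and Isg20l2 were lost against the t distribution. Irf2bpl passed with the stricter filter and under each of the 3 centrings, at adjusted p-values of 0.00370 to 0.0478 (all alternatives: 0.00370 to 1). Ifitm5 and Ifitm10 are described with their family above but were counted in this set too. Without the set of 6, 16 members were higher and 14 lower.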

How the data were processed

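RNA was sequenced from MC3T3-E1 cells, 4 libraries with Yoda1 and 4 with DMSO, per the labels' protocols. The authors used Salmon, DESeq2 and GRCm39, per the submitters' processing notes, which give no versions. The deposited table holds 20972 rows with 1 comparison and no values per library, so it could not be split by library. Its mean normalized count is a signal averaged by the authors, its log2 fold change and standard error are the authors' values, the Wald statistic is a score the authors deposited, and its p-values and adjusted p-values are those of the authors' DESeq2 test, per the file headers. Fold changes over the standard errors gave the deposited score, and the Benjamini-Hochberg adjustment over 14653 rows gave the deposited adjusted p. The direction, Yoda1 over DMSO, is read from what the authors called the deposited table, and the 3 libraries per group from the labels. The depth of single libraries is unknown here.

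Intervals at 95% were computed from fold change and standard error with the normal distribution. Group levels were implied from mean and fold change for equal groups. Transcript lengths are the median over protein-coding transcripts of GENCODE M21, found for 94 of 98 members; RefSeq symbols matched 95. Named were members past an adjusted p of 0.05, members with a mean of at least 423, 30 members fixed by name (Rsad2 had no row), and up to 4 genes of each pathway list; other members are given by counts and ranges, and those named beyond this were chosen after their values were seen. The result of 1 member is not reported here. The members, lists and tests were chosen with earlier results of these data known. Alternatives were no filter, a mean of at least 9.60, trimmed-mean, median and equal-sum centring (shifts -0.02, -0.01 and -0.11), a t distribution with 4 degrees of freedom, a test against a log2 fold change of 0.5, and fold thresholds of 0.5 and 1; applying them to the pathway lists was added after seeing the data. The adjustment was tested on simulated data. Python 3.11.15, pandas 2.3.3, NumPy 2.4.6 and SciPy 1.17.1 were used.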

Additional observations from a re-analysis of the deposited data

How the results depend on the processing

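The count of 20 members higher with Yoda1 became 7 against the t distribution, 5 in a test against a log2 fold change of 0.5, 12 with a fold above 0.5 and 6 above 1. The count of 14 lower became 8 with equal summed counts, 5 with the t distribution, 3 in the test against 0.5, 7 above 0.5 and 3 above 1. No filter, the stricter filter, the trimmed-mean and median centrings and leaving out members that share a name moved neither count by over 1.5 times. Shares of all tested genes were not taken under the alternatives, so whether members lost calls more often than other genes was not tested. The median log2 fold change of the members, 0.06, was -0.04 when no filter was set and 0.17 at equal summed counts. With equal summed counts, the uncalled log2 values turned to 0.057 for Irf9 and to 0.077 for Stat5b; the shift of -0.11 in that centring is larger than either value. The t distribution is wider by construction; other causes were not tested. No paired analysis was possible because the table holds no values per library, and leaving out each replicate and edgeR with TMM were not run for the same reason. Low means limit the Mx, Oas, Gbp and class II genes.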
